A study of Mus musculus with 3 samples.

Results

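The cytosolic and mitochondrial chaperone genes were described in NIH3T3 cells, a line of immortalised mouse embryonic fibroblasts, on 3 expression arrays. The members are 35 genes chosen by function: heat shock proteins, their co-chaperones, the CCT chaperonin and the heat shock transcription factors. A probe set was taken when its annotation gave exactly 1 gene symbol and that symbol was in the list. This found 88 of the 45101 probe sets, for 32 of the 35 genes. Of these, 31 genes had a mean signal at or above the median of all probe sets and were tested among 10843 genes in all. Hspa1a was below that filter. Hsp90ab1, Hsf1 and Ptges3 had no probe set annotated with that symbol alone and were not analysed here.

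Chaperones bind proteins that are not yet folded or have lost their fold. HSP70 proteins bind short stretches of an unfolded chain in a cycle driven by ATP, HSP40 proteins deliver the chain and start the cycle, and nucleotide exchange factors release it. HSP90 acts later, on kinases, steroid receptors and other clients, with co-chaperones that hand clients over or pace its ATPase. The CCT chaperonin is a double ring of different subunits that encloses actin and tubulin while they fold, and the mitochondrial chaperonin does the same for imported proteins. Under heat or oxidative damage the heat shock factors bind heat shock elements, which are repeats of a short inverted unit, and raise transcription of many of these genes.

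The labels set cells with the empty vector, on 2 arrays numbered 1 and 2, against cells labelled RetSat, numbered 2, on 1 array. The series is a screen for short hairpin RNAs (shRNAs) that give resistance to oxidative stress, and the RetSat shRNA cells are labelled as highly resistant to t-BHP (tert-butyl hydroperoxide, an organic peroxide). The empty-vector labels give calf serum in DMEM as the medium and no treatment, while for the RetSat shRNA cells the sources used here name neither. Nor do they say whether any array came from a single clone or a pool, or what the number 2 of the shRNA array stands for. The values are signals on a linear scale, in arbitrary units.

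Empty vector 1 stood apart from the other arrays. Over the tested genes, the SD of the log2 difference was 0.74 between the empty-vector arrays and 0.34 between RetSat shRNA and empty vector 2, and the median gene was 0.14 higher on empty vector 2 than on empty vector 1. Each result is therefore given with both empty-vector arrays and against each alone. The targeted gene Retsat had a signal of 416 on empty vector 1, 496 on empty vector 2 and 69.5 on the shRNA array (log2 difference -2.54, SE 0.50, adjusted p = 0.9999 in limma). Of 12 fibroblast markers 11 had a probe set, all above the filter, and their summed signal was 87320.5, 88376 and 89316 on the arrays of empty vector 1, of empty vector 2 and of the shRNA; signals below keep this order. Summed signals of 8 epithelial, 7 immune, 6 endothelial and 6 muscle markers ran from 80.2 to 386 over the arrays, with 4, 2, 0 and 1 markers above the filter, and the brightest of them in each list were Epcam, at 53.8, 121.8 and 106.6, Cd68, at 142, 132.8 and 119.7, Kdr, at 37.3, 8.6 and 69.8, and Acta1, at 29.0, 81.2 and 46.4. In these lists Cdh1, Ptprc, Pecam1 and Myog read at most 15.2, and none of these 4 was listed at 0. Others were above the filter, among them Krt8 at 102.1, 16.2 and 78.1. The ratio of 3' to 5' control signal for Actb, which rises with RNA degradation, was 1.53, 1.53 and 1.65, and that for Gapdh was 0.841, 0.931 and 0.931. The part of these technical values in the results below was not tested.

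Promoter windows of 4 members are shown because they carry the longest heat shock elements found among the members or, for Hspa1b, belong to the stress-inducible HSP70. The windows are from RefSeq on GRCm38.p6, run 5′ to 3′ on the strand of the gene, and cover 250 bases before to 50 after an annotated start. Capitals mark the element.

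Hspe1, chr1:55087898-55088197, plus strand: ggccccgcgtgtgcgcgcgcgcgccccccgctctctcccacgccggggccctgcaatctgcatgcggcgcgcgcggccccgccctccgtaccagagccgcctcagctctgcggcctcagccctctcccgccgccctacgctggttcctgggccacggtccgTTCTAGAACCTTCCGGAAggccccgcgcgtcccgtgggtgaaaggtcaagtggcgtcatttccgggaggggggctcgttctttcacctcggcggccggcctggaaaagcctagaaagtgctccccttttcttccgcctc
Hsph1, chr5:149636266-149636565, minus strand: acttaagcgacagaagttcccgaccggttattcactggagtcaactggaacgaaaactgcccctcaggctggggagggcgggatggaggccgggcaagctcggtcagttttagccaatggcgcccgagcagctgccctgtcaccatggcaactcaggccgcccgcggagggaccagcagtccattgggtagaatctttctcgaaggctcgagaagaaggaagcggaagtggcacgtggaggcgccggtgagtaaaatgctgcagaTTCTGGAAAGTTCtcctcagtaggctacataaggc
Dnajb6, chr5:29735648-29735947, plus strand: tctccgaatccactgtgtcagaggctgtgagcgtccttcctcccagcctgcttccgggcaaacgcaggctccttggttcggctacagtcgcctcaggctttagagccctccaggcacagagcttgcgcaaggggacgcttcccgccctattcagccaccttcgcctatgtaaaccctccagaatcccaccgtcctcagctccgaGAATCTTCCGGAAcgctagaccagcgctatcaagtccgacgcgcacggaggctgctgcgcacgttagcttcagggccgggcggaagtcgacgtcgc
Hspa1b, chr17:34959189-34959488, minus strand: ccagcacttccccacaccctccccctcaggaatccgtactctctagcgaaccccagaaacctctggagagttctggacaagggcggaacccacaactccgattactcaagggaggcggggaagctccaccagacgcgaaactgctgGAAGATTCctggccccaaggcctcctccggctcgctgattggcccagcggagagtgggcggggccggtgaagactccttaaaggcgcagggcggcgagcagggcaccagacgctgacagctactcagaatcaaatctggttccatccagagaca

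The window table held 27 of the 35 members, in 35 windows, and did not list Cct4, Cryab, Hsf1, Hsp90aa1, Hsp90ab1, Hspa8, Hspa9 or St13. The motif GAANNTTCNNGAA, searched on both strands, occurred in 4 of the 27 genes (14.8%), namely Hspd1, Hspe1, Hsph1 and Dnajb6. It occurred in 0.662% of the 27025 genes with a window, and in 0.587% of those tested on the arrays. In Hspe1 it occurs as a pair of overlapping matches, which begin 89 and 84 bases before the start. In Hsph1 it begins after the start, by 15 or 36 bases depending on the annotated start. The shorter forms GAANNTTC or TTCNNGAA, both of which the longer motif contains, occurred in 14 of 27 members (51.9%) and in 17.0% of all genes. In Hspa1b the shorter form begins 104 bases before the start. Hspd1 and Hspe1 are neighbours that point away from each other. The Hspd1 window with the longer motif shares 285 of 300 bases with that of Hspe1, so they share this element. A further Hspd1 window, of another annotated start, held no match. The windows of the neighbours Hspa1a and Hspa1b were identical at 296 of 300 positions. The absence of a match says only that these letters are not in the window.

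On RetSat shRNA the chaperone genes read almost as on empty vector 2, and most of their spread lay between the empty-vector arrays. Against empty vector 2, the log2 difference of the 31 genes ran from -0.30 (Hsph1) to 0.24 (Dnajb6), and none reached a size of 0.32. Of all tested genes 22.3% did, and of those past the 75th percentile of signal, where 29 of the members lie, 10.9% did. Between the empty-vector arrays the members' differences ran from -1.92 (Hsp90aa1) to 1.08 (Hspa1b), with 6 genes at least 2-fold lower on empty vector 2 and 1 at least 2-fold higher. These are 19.4% and 3.23% of the members, where the background is 9.32% and 3.41%. The median size of a member's difference was 0.08 between RetSat shRNA and empty vector 2 and 0.55 between the empty-vector arrays, while all tested genes gave 0.15 and 0.41. No test was made of these shares. The RNA came from whole cultures, so fewer cells that express a gene and less RNA per cell cannot be told apart.

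**Figure D1:**
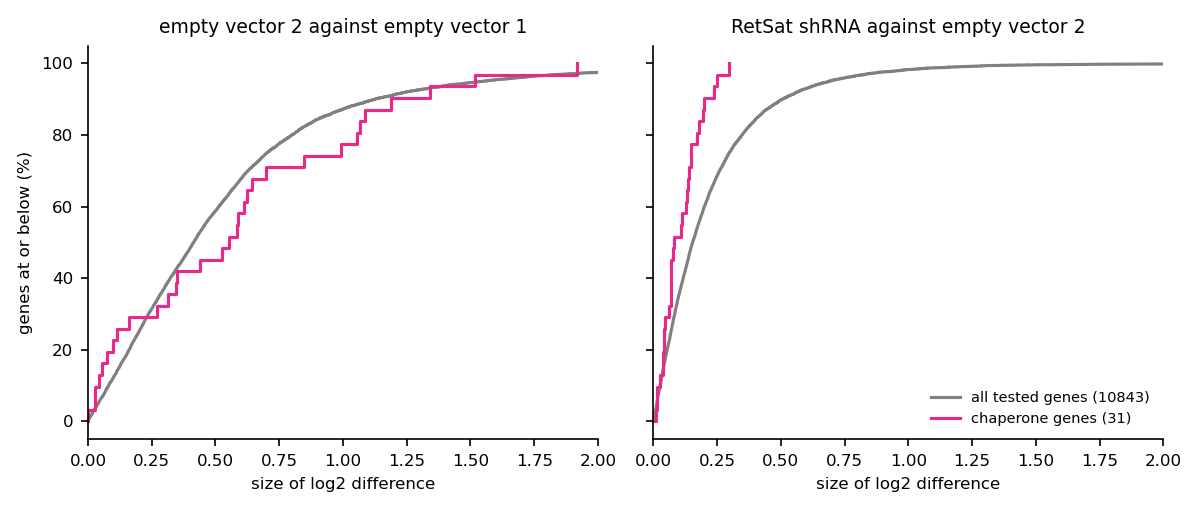
Share of genes (vertical axis, percent) whose log2 difference is at or below a given size (horizontal axis), for the 31 chaperone genes and all 10843 tested genes. Between RetSat shRNA and empty vector 2 every chaperone gene lies at or below 0.30, while between the empty-vector arrays their curve reaches 1.92. The horizontal axis ends at 2, beyond which some of all tested genes lie.

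No chaperone gene passed the test of RetSat shRNA against empty vector. In limma's moderated test, fitted over all genes with Benjamini-Hochberg adjustment, 0 of 31 members passed an adjusted p of 0.05, and 0 (0.0%) of all tested genes did. At an unadjusted p under 0.05 there were 0 members and 108 genes. The members' log2 differences from the mean of the empty-vector arrays ran from -0.89 to 0.69 with SEs of 0.50 to 0.72, and their adjusted p was 0.9999. With 1 shRNA array and control arrays this far apart, a p that misses the threshold does not show that levels were alike.

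The members lay on both sides of the empty-vector pair. Of the 31 genes, 9 read higher on RetSat shRNA than on either control (29.0%, background 34.4%) and 11 read lower than both (35.5%, background 25.4%). At a log2 difference of at least 0.32 from both arrays in the same direction there were 0 members, where 5.48% of all genes were higher and 6.1% lower. At 2-fold there were again 0 members, with 0.0922% of all genes higher and 0.498% lower. The median log2 difference of the members was -0.10, next to 0.07 for all tested genes. Against empty vector 1 alone it was -0.17, where all genes gave 0.14, and against empty vector 2 alone it was 0.01, where all genes gave 0.00, so the sign of the members' median rests on empty vector 1. Against empty vector 1, 7 members were at least 2-fold lower (22.6%, background 10.2%) and 1 was higher (3.23%, background 3.45%), whereas against empty vector 2 there were 0 at 2-fold (background 1.73%).

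**Figure D2:**
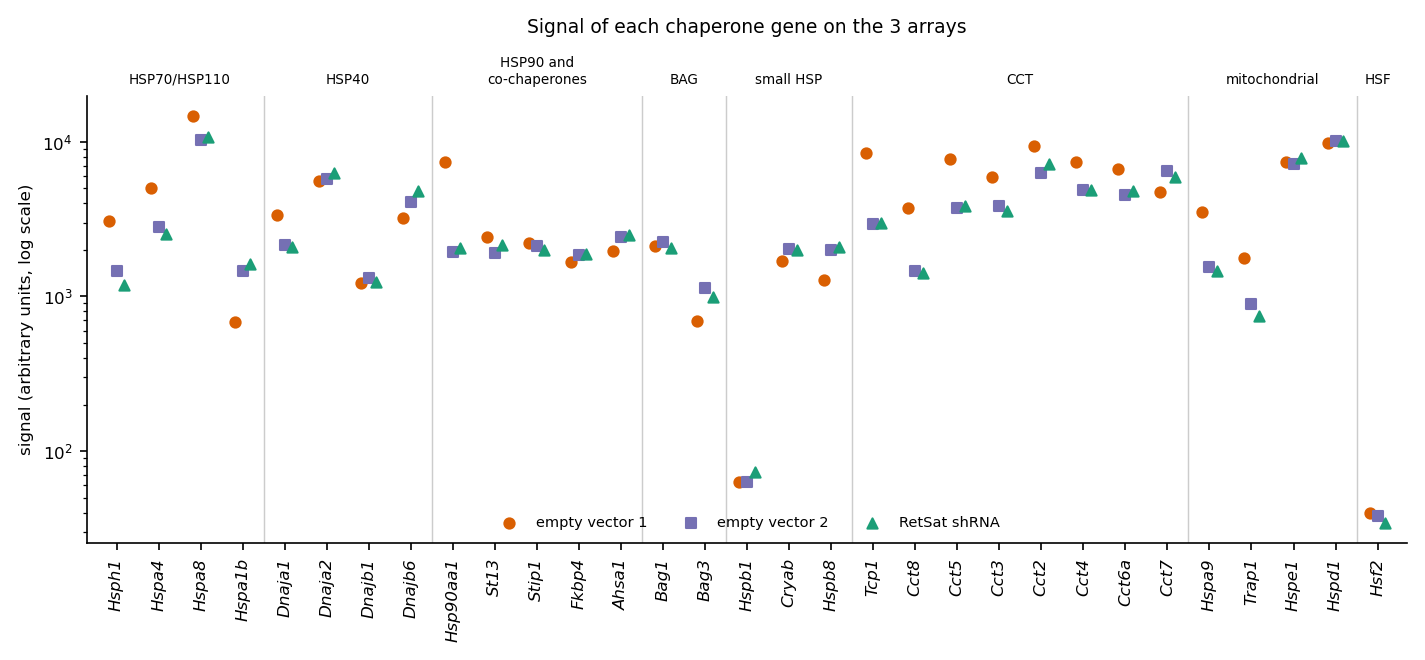
Signal of the 31 tested chaperone genes (arbitrary units, log axis) on the 2 empty-vector arrays and the RetSat shRNA array, 1 point per array, ordered by role. RetSat shRNA and empty vector 2 sit close together for every gene, and empty vector 1 lies well above them for Hsp90aa1, Tcp1, Cct8, Cct5, Hsph1, Hspa9 and Trap1 and below them for Hspa1b; levels of different genes are not comparable.

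Among the HSP70 and HSP110 genes, Hspa1b was low on empty vector 1 and the other 3 tested genes were high there. Hspa1b, which encodes an HSP70 that is made in quantity under stress, read 680, then 1453, and 1611 with the shRNA. The shRNA value lay above both controls, 2.37 times empty vector 1 and 1.11 times empty vector 2 (log2 difference from their mean 0.69, SE 0.58, adjusted p = 0.9999). The other Hspa1b probe sets read 415, 670.1 and 617, and 843, 988 and 1033, in the same array order. All 3 were thus lowest on empty vector 1, although RetSat shRNA was above empty vector 2 on 2 and below it on 1. The single Hspa1a probe set read 6.7, 23.4 and 22.8, too dim to be tested. As the paralogs are close to identical, signal from one cannot be told apart from signal of the other.

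Hspa8, the constitutive HSP70 that also strips clathrin from vesicles, read 14680.1, 10196 and 10711. Hspa4, an HSP110 protein that acts as an exchange factor for HSP70, read 5042, 2799.5 and 2525, and its other above-filter probe sets were likewise highest on empty vector 1. The dimmest of these, at 57.7, 53.9 and 34.5, was near level between the controls and lowest on RetSat shRNA. Hsph1, the heat-inducible HSP110, read 3055, 1452 and 1182. By the brightest probe set of each of these genes, empty vector 1 was the high array and the others formed a pair. The shRNA value of Hsph1 was 0.814 times that of empty vector 2 and was the member furthest below it, although the gene's other probe set, at 1899, 480.4 and 458, gave 0.954. Its log2 difference from the control mean was -0.83 (SE 0.58, unadjusted p = 0.179 and adjusted p = 0.9999 in limma), the lowest unadjusted p among the members. Hsph1 carries the long heat shock element in its window, as do Dnajb6 and the neighbours Hspd1 and Hspe1, which share theirs. The part of the element in these values was not tested.

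By their brightest probe sets the HSP40 genes were closer to level. Dnaja1, a farnesylated HSP40, read 3364, 2153 and 2090.1, with empty vector 1 high. Another of its probe sets, at 1016, 871 and 854, went the same way, and a further one, at 488, 590 and 599, did not. Dnaja2 read 5594, 5700.0 and 6258, and Dnajb1, a main partner of the inducible HSP70, read 1213, 1312.5 and 1242. The other Dnaja2 probe sets read 228, 261 and 258, then 1611, 1123 and 1145, and 654, 980 and 1138. They disagreed in direction between the controls. Dnajb6, which keeps polyglutamine proteins from aggregating, read 3198, 4061 and 4788. Its shRNA value exceeded both controls, with log2 differences of 0.58 against the first and 0.24 against the second, the latter the highest of the members. The other Dnajb6 probe sets read 732, 840.1 and 845, then 387, 326 and 379.6, and 129.8, 111 and 96.2, so that only the brightest pair lay above both controls. In limma the gene's difference was 0.41 (SE 0.51, adjusted p = 0.9999).

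HSP90 and its co-chaperones held the largest gap between the control arrays. Hsp90aa1, the inducible cytosolic HSP90, read 7381 on empty vector 1, 1947 on the second control and 2044 on RetSat shRNA. Its other above-filter probe sets read 7035, 419 and 323, and 3980.2, 401 and 323. Empty vector 1 was therefore 3.79, 16.8 and 9.93 times empty vector 2 by probe set, and the shRNA array was 1.05, 0.770 and 0.805 times empty vector 2. All 3 probe sets were highest on empty vector 1, and they differed widely in the size of the gap. The gene's difference in limma was -0.89 with an SE of 0.72, the largest SE among the members.

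The co-chaperones had smaller gaps between the control arrays than Hsp90aa1. Stip1, the adaptor that links HSP70 to HSP90, read 2222, 2106.5 and 2005. Ahsa1, which stimulates the HSP90 ATPase, read 1954.5, 2429.8 and 2496, and Fkbp4, a prolyl isomerase in steroid receptor complexes, read 1664, 1864 and 1882.5. A dim Fkbp4 probe set read 66.4, 62.8 and 40.4. On it RetSat shRNA was below both controls, at log2 differences of -0.60 and -0.53. St13, an HSP70-interacting protein that slows release of its client, read 2430.5, 1907 and 2149.9. Its other above-filter probe set read 1858, 1355 and 1366, likewise highest on empty vector 1, at -0.45 between the controls. By the brightest probe sets, the log2 difference between the control arrays lay between -0.35 (St13) and 0.31 (Ahsa1) for these 4 genes. Of the exchange factors of the BAG family, Bag1 read 2103, 2253 and 2041, below both controls on RetSat shRNA by at most 0.14. Bag3, which couples HSP70 to autophagy and is induced by stress, read 693, 1131.5 and 998, with empty vector 1 low and RetSat shRNA between the controls.

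The small heat shock proteins hold unfolding proteins in a state from which HSP70 can recover them. Hspb8, the partner of Bag3, read 1285, 1983 and 2071, and its shRNA value was 1.61 times empty vector 1 and 1.04 times empty vector 2. Bag3, Hspb8 and Hspa1b thus read low on empty vector 1, with the other arrays a close pair, while the inducible Hsp90aa1 and Hsph1 read high there. Of all tested genes only 40.6% were lower on empty vector 2 than on empty vector 1, so a low empty vector 1 was common. Another Hspb8 probe set read 566, 553 and 525, and a further one, of the kind that may match other sequences, read 258.5, 293 and 438. Cryab, the alpha B-crystallin, read 1686, 2033 and 1981. Its other above-filter probe set read 1222, 1068.5 and 941.5, with the controls in the opposite order and RetSat shRNA below both. Hspb1, a small heat shock protein that also acts on actin filaments, was dim at 63.0, 63.0 and 73.7.

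**Figure D3:**
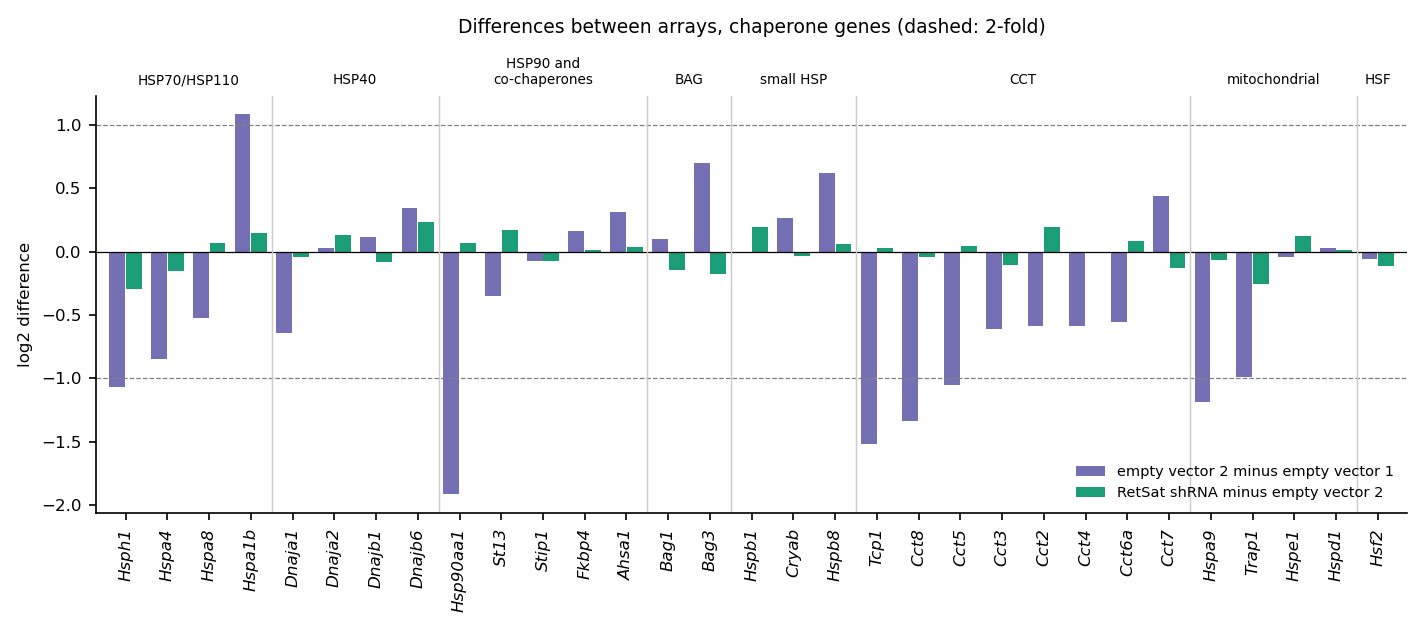
Log2 differences (vertical axis) of the 31 tested chaperone genes between the empty-vector arrays and between RetSat shRNA and empty vector 2, in groups by role, with dashed lines at 2-fold. The bars between the empty-vector arrays pass 2-fold for Hsp90aa1, Tcp1, Cct8, Hspa9, Hsph1, Cct5 and Hspa1b, and the bars for RetSat shRNA lie between -0.30 and 0.24.

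By their brightest probe sets, 7 of 8 CCT subunits were higher on empty vector 1 than on empty vector 2. Of all tested genes 40.6% were higher there, as were 18 of the 31 members (58.1%). Tcp1, the alpha subunit that gave the complex its older name, read 8437, 2936.5 and 2992. Cct8 read 3724, 1464 and 1421, and Cct5 read 7745, 3726 and 3847. These 3 genes passed 2-fold between the control arrays, at 2.87, 2.54 and 2.08 times empty vector 2.

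The other subunits were less far apart. Cct3 read 5877, 3840.5 and 3565, Cct4 read 7351, 4903 and 4869, Cct6a read 6682, 4552 and 4816, and Cct2 read 9404, 6247 and 7145. Cct7 was the exception at 4760.4, 6458 and 5892, and its other probe set read 4547, 4114 and 3559. Although the subunits form 1 complex in fixed proportion, the ratio of empty vector 1 to empty vector 2 ran from 0.737 (Cct7) to 2.87 (Tcp1). Against empty vector 2, RetSat shRNA differed from -0.13 (Cct7) to 0.19 (Cct2) on the log2 scale, with 4 subunits higher and 4 lower. On RetSat shRNA 0 subunits lay above both controls, and Cct3, Cct4 and Cct8 lay below both. These counts hold for the brightest probe sets. The other Cct2 probe sets read 7732, 5482 and 4796, with RetSat shRNA below both controls, and 2560, 2653 and 2755, with it above both.

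By the brightest probe sets, 1 pair of the mitochondrial chaperones was level and the other was not. Hspd1 (HSP60) and Hspe1 (HSP10) form the mitochondrial chaperonin and its lid. Hspd1 read 9865, 10045 and 10148, and Hspe1 read 7362, 7142 and 7797. By these probe sets both genes lay above both controls on RetSat shRNA, by log2 differences of at most 0.13. A second Hspe1 probe set was less level, at 2069, 2758 and 2442, with RetSat shRNA between the controls. Hspa9, the mitochondrial HSP70 (mortalin) that pulls proteins through the inner membrane, read 3519.5, 1540.5 and 1468. Trap1, the mitochondrial HSP90, read 1780.0, 889.5 and 746. For both genes RetSat shRNA was the lowest array and empty vector 1 the highest, with limma differences of -0.66 (SE 0.59) and -0.75 (SE 0.57), each with an adjusted p of 0.9999. Against empty vector 2 alone the values for Hspa9 and Trap1 were -0.07 and -0.25. A second Hspa9 probe set read 2160.5, 1905 and 1908, and a second Trap1 probe set read 332.5, 302 and 333, and both were far nearer to level than the brightest ones. Dimmer Hspa9 probe sets above the filter read 184.7, 147.1 and 174.1, and 35.9, 61.5 and 63.7. RetSat shRNA was the lowest array on none of these, and on the last it was the highest and empty vector 1 the lowest. Of the heat shock factors, Hsf2 alone was measured, and it was dim at 39.8, 37.9 and 34.3.

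Probe sets of the same gene often lay on opposite sides of zero. Of the 88 member probe sets, 76 were above the filter. At least 2-fold lower on empty vector 2 than on empty vector 1 were 11 (14.5%, background 11.6% of probe sets), and at least 2-fold higher were 2 (2.63%, background 3.54%). Between RetSat shRNA and empty vector 2, 7 reached a log2 difference of 0.32 (9.21%, background 27.8%). Of the 22 genes with more than 1 probe set above the filter, 14 had probe sets on both sides of zero between the control arrays, and 16 did between RetSat shRNA and empty vector 2, where the differences were smaller.

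The probe sets of Cct3 differed in the size of the gap. The one with the largest read 1776, 348 and 318, so that empty vector 1 was 5.10 times empty vector 2, while the brightest gave 1.53 times. A dim one read 58.5, 85.0 and 79.1, on the opposite side. Of the 76 above the filter, Cct4 held the 1 that was at least 2-fold below both controls on RetSat shRNA, at 231, 263 and 109.5. Below the filter, a dim Hspa9 probe set did so too, at 76.2, 32.7 and 5.7. A dim St13 probe set, also below the filter, was at least 2-fold above both, at 17.4, 22.9 and 65.2. The Cct4 probe set is of the kind that may match other sequences, and so is another that read 401, 1042 and 556. Neither shared the pattern of the brighter Cct4 probe sets, of which one read 6607, 3560.1 and 3885. The brightest probe sets of Cct4, Cct2 and Hspa8 are of that kind too, so the kind does not set the discordant ones apart.

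**Figure D4:**
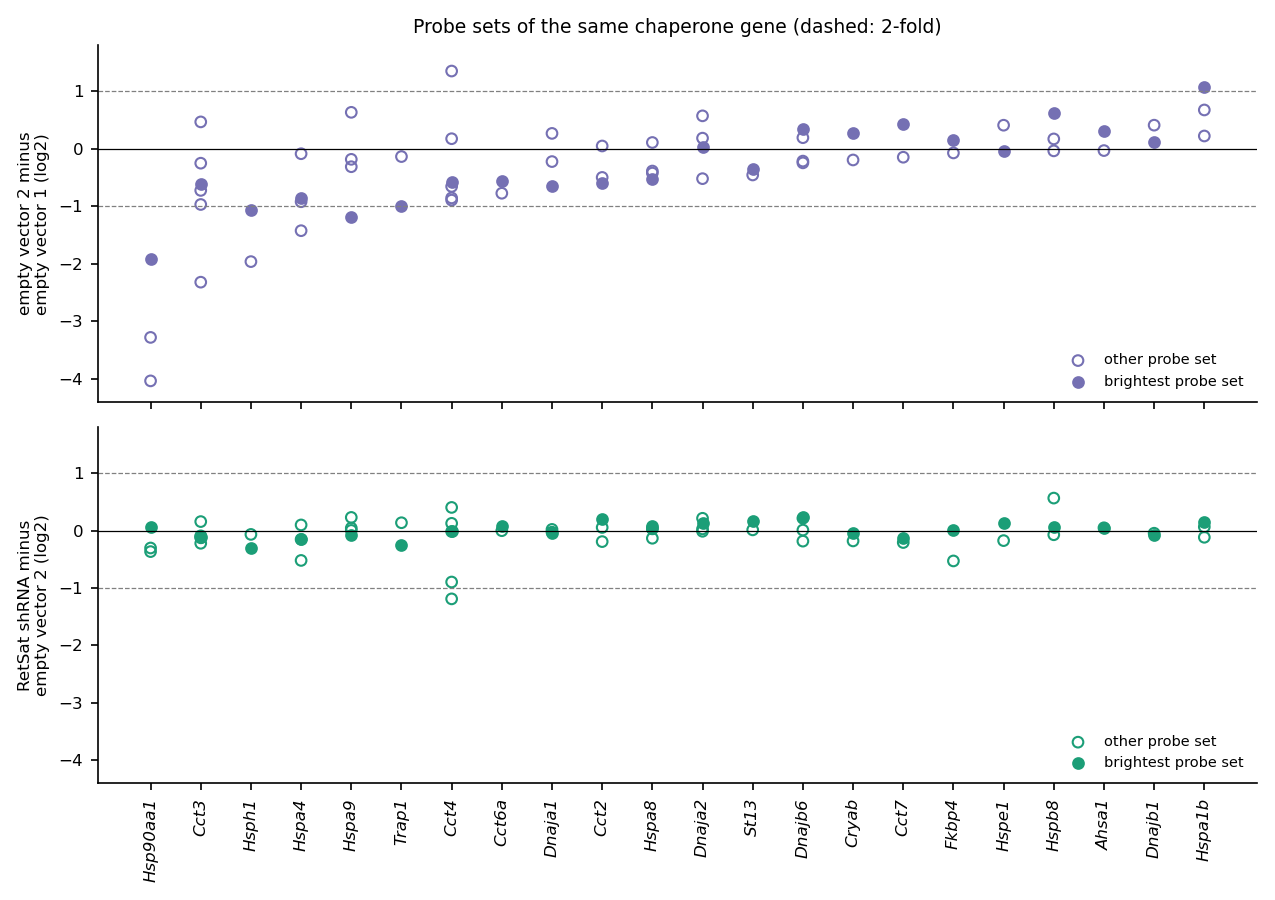
Log2 difference (vertical axes) of each probe set above the filter for the 22 chaperone genes with more than 1, between the empty-vector arrays (upper panel) and between RetSat shRNA and empty vector 2 (lower panel), filled for the brightest probe set of a gene. Hsp90aa1 spreads from -4.04 to -1.92 in the upper panel, and in the lower panel 1 Cct4 probe set passes 2-fold, at -1.19.

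Set against their windows, members with and without a match to the shorter form had overlapping ranges. Tested members without a window (Cct4, Cryab, Hsp90aa1, Hspa8, Hspa9 and St13) are not included, among them Hsp90aa1 at -1.92 between the control arrays. The 13 tested members with the shorter form had a median difference of 0.00 between the control arrays (range -1.07 to 1.08), with 6 lower and 6 higher on empty vector 2. The 12 without it had a median of -0.07 (range -1.52 to 0.44), with 7 lower and 5 higher. Among the 4 with the longer motif, Hsph1 was at -1.07, Hspe1 at -0.04, Hspd1 at 0.03 and Dnajb6 at 0.34. Against empty vector 2, RetSat shRNA ran from -0.30 to 0.24 in genes with a match to the shorter form and from -0.25 to 0.13 in genes without one.

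Other chaperone genes gave the same count of 0 in limma. From a list of 79 further chaperones and cofactors, 72 genes were tested, of which 24 lay above both controls on RetSat shRNA (33.3%, background 34.4%) and 14 below both (19.4%, background 25.4%). Their median log2 difference was 0.02 against the control mean, 0.06 against empty vector 1 and 0.04 against empty vector 2. Hspbap1, whose product binds Hspb1, read 88.0, 71.8 and 127.6 and was the 1 gene of the list that exceeded both by a log2 difference of 0.32 or more. Unc45a, a myosin chaperone, read 271, 295 and 368, the prefoldin subunit Pfdn4 read 1909.5, 1705.5 and 2266, and the HSP90-bound phosphatase Ppp5c read 459.5, 692 and 799.8. All 4 were above both controls without passing the test. Of those below both, Dnaja4, an HSP40, read 148, 144 and 118, the HSP110 gene Hspa4l read 568, 206 and 176, Tomm34, a carrier of mitochondrial precursors, read 636, 633 and 545.5, and Hspb6 read 547, 593 and 476. Hspa4l was highest on empty vector 1, as were the other HSP110 genes Hspa4 and Hsph1.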

How the data were processed

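The deposited intensities are single-colour array signals per probe set on a linear scale. RNA was extracted with Trizol LS from the empty-vector cells, per the labels' protocols; how probe signals were summarised was not stated there. Mean signal after trimming 2% at each end lay between 249.3 and 249.9 on the 3 arrays, so arrays were not scaled again. The number of arrays limits precision, and p-values measure only the spread between the empty-vector arrays, which may be technical.

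Gene names came from the platform annotation. Of the probe sets, 34945 had 1 symbol, 932 had several and 9160 had none listed, besides 64 controls. A gene was represented by its brightest probe set. Values were log2(signal + 10.2), the offset being the 25th percentile of all signals, which understates changes of dim genes. Genes at or above the median were tested two-sided by limma (version 3.58.1, under R 4.3.3; lmFit, then eBayes) with 1 residual degree of freedom per gene, assuming the lone shRNA array varies like the controls. The fit was tested on simulated data. Alternatives changed the offset, the filter, the normalization, the probe set rule, the variance prior, the fold and the control arrays. Promoter windows were from RefSeq, GRCm38.p6.

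The members and lists were chosen with earlier results of these data known. All members may be named, and of the other chaperones the 4 furthest above and the 4 furthest below both controls, ranked on the nearer control.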

Additional observations from a re-analysis of the deposited data

How the results depend on the processing

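No paired analysis was possible because the groups compared share 1 replicate number only. Leaving out an empty-vector array leaves no residual degree of freedom, so those values have no test. No setting brought a chaperone gene past limma's threshold. Over all genes limma passed 0, except 1 with the arrays centred on their medians and 7 with a robust variance prior, Retsat among them (-2.54, adjusted p = 0.00717 in limma). The count of all genes at least 2-fold from both controls was 64, and it was 7 with an offset of 50, 110 with an offset of 1, 800 without a filter, 1 with the filter at the 75th percentile and 211 with each probe set on its own. It was 345 at 1.5-fold and 1255 at a log2 difference of 0.32, and leaving out 1 empty-vector array gave 188 to 1478. Among members that count was 0, or 1 with each probe set on its own, and 0 to 8 with 1 empty-vector array left out. Members above both controls numbered 9, but 5 after quantile normalization, and 8 with the 75th percentile filter or the mean of all probe sets. Those below both numbered 11, but 13 after quantile normalization, 9 with centred arrays, and 10 with that filter or that mean. With each probe set on its own the counts above and below both were 18 and 30, by construction over more features. With 1 empty-vector array left out they were 13 to 16 and 15 to 18. The members' median of -0.10 became -0.17 to 0.014 with 1 empty-vector array left out. No member difference was past a threshold. Of 244 recomputed with both empty-vector arrays, 10 changed sign: Cct7 (-0.026), Hspd1 (-0.13) and Hspe1 (-0.063) after quantile normalization, Dnajb1 (0.0075) and St13 (0.028) with centred arrays, and Cct7 (-0.10), Cct8 (0.056), Dnajb1 (0.069), Fkbp4 (-0.025) and St13 (0.37) with the mean of all probe sets. Of 62 recomputed with 1 empty-vector array left out, 11 changed sign. These were Bag3 (-0.18), Cct2 (0.19), Cct5 (0.05), Cct6a (0.08), Cct7 (-0.13), Cryab (-0.04), Hsp90aa1 (0.07), Hspa8 (0.07), St13 (0.17) and Tcp1 (0.03) without empty vector 1, and Dnajb1 (0.03) without empty vector 2. The mean gives dim probe sets equal weight; otherwise the cause was not tested. Dim members (Hspb1, Hsf2) had signals near the median of all probe sets.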

Other observations

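The further chaperone genes named here for their values on the empty-vector arrays were chosen after those values were seen. Of the 72 tested, 8 were at least 2-fold lower on empty vector 2 than on empty vector 1 (11.1%, next to 9.32% of all tested genes) and 0 at least 2-fold higher (3.41% of all tested genes), so the lower share is near the background. Dnajc2, an HSP40 that works at the ribosome, read 1301 on empty vector 1, 184.5 on empty vector 2 and 228 with the shRNA. The endosomal HSP40 Dnajc13 read 799, 114 and 142, and Sugt1, an HSP90 co-chaperone of kinetochore assembly, read 1237, 381 and 492. Clpx, the unfoldase of the mitochondrial ClpXP protease, read 402, 179.7 and 210.1, while Clpp, the peptidase of that pair, read 1258, 1833 and 1737. The prefoldin subunits Pfdn5, at 4286, 3722 and 4002, and Vbp1, at 2487, 2178 and 2263, were near level. On the opposite side Dnajc14 read 289.9, 579.5 and 618, and Dnajb12, an HSP40 of the endoplasmic reticulum membrane, read 139.8, 268 and 294.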
